A study of Mus musculus with 5 samples.

Results

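The regions described here are the genomic sites at which p300 was listed by ChIP-seq (chromatin immunoprecipitation followed by sequencing) with pioglitazone and by no other peak list of the study. Peaks of all 4 deposited lists were merged into sites wherever they overlapped by at least 1 bp, and a site was kept when it held a p300 peak with pioglitazone and none of the other 3 lists. Of 44718 merged sites, 4755 met this rule, which is 10.6%. They are called pioglitazone-only p300 sites below, and each consists of 1 peak of 227 bp. The sites were chosen by the presence of a peak in 1 list and its absence from 3, so their count and their lack of overlapping c-Jun describe the choice and are no finding.

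All libraries came from MS5, an established mouse bone marrow stromal cell line, at passage 11. The cells of the 4 ChIP libraries were exposed to TGF-β1 at 10 ng/mL for 5 h. Those of 2 libraries also received pioglitazone at 20 ng/mL, and chromatin was precipitated for p300 or c-Jun, which gave 4 lists; a pooled input library, whose label names no treatment, has no list here. The lists held 31466 p300 peaks without pioglitazone, 21994 with it, 17044 peaks for c-Jun in the arm without pioglitazone and 13325 in the arm with it. Each combination of antibody and treatment was 1 library, so every difference below compares single libraries, has no replicate check and carries no p-value. Peaks carried no height or read count, and the depth is unknown. The intervals of shares are exact (Clopper-Pearson) 95% intervals, and those of differences are Mantel-Haenszel 95% intervals. Both cover counting error only. Positions are on mouse build mm9. No gene annotation or sequence of that build was used here, so sites are named by position, and neither the labelled cell type nor motifs could be checked at them.

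p300 is a histone acetyltransferase and coactivator. It does not bind a DNA sequence of its own but is brought to enhancers and promoters by transcription factors, and it acetylates the histones there. TGF-β1 acts through SMAD proteins, which recruit p300, often beside AP-1, the dimeric factor of which c-Jun is a subunit. Pioglitazone is a ligand of PPARγ, a nuclear receptor that pairs with RXR and exchanges corepressors for coactivators such as p300 when a ligand is bound. In stromal cells PPARγ is known for promoting the adipocyte fate.

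The list of p300 peaks with pioglitazone formed 21993 sites, and the pioglitazone-only sites were 21.6% (21.1 to 22.2) of them. Of the 21994 p300 peaks with pioglitazone, 5917 overlapped no p300 peak without it, a share of 26.9%, and 4755 of these 5917 make up the sites described here. The other 1162 were set aside by the rule. Of these, 313 shared a site with c-Jun with pioglitazone, 445 with c-Jun without it, 264 with c-Jun in both treatments, and 140 were joined through a neighbouring peak to a p300 peak without pioglitazone. The limit of the rule is narrow. At 9 pioglitazone-only sites a peak of another list touched the site with a gap of 0 bp, as at chromosome 2, 18919441 to 18919667, where a c-Jun peak without pioglitazone adjoined it. Just outside, 4 p300 peaks with pioglitazone overlapped another list by 1 bp, for example at chromosome 11, 117590022 to 117590248, with a p300 peak without pioglitazone. A gap of at most 50 bp was found for 235 pioglitazone-only sites, and a largest overlap of at most 50 bp for 300 p300 peaks left outside.

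Pioglitazone-only sites stood low in the p300 list. Row order stands in for peak strength here because the deposited score is 1 throughout. The sorting key of the lists is not known, so a position is an order in the list and not a measured height. The first pioglitazone-only site was at position 206 of 21994, and the median position was 75.2% of the way down the list, with quartiles at 56.3% and 89.1%. The 6001 p300 sites found in both treatments and never with c-Jun had their median at 53.5%, with quartiles at 31.9% and 74.9%. Sites present in all 4 lists had theirs at 24.4%. The small classes in which p300 was listed only with pioglitazone but shared a site with c-Jun lay between. Their medians were 64.3% where c-Jun was listed with pioglitazone only, 62.4% where c-Jun was listed without it only and 56.5% where c-Jun was listed in both.

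The share of p300 sites that were pioglitazone-only was higher in each successive 10% step of the list. In the first step 23 of 2199 sites were pioglitazone-only, 1.05% (0.664 to 1.57), and in the second 65, 2.96% (2.29 to 3.75). In the fifth step the share was 16.9% (15.3 to 18.5), and in the last 1104 of 2200 sites were pioglitazone-only, 50.2% (48.1 to 52.3). The upper 50% of rows held 885 pioglitazone-only sites, 18.6% (17.5 to 19.7) of all of them. In the other p300 list, the 11485 p300 sites listed only without pioglitazone began at position 238 of 31466 and had their median at 73.3% of that list.

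**Figure D1:**
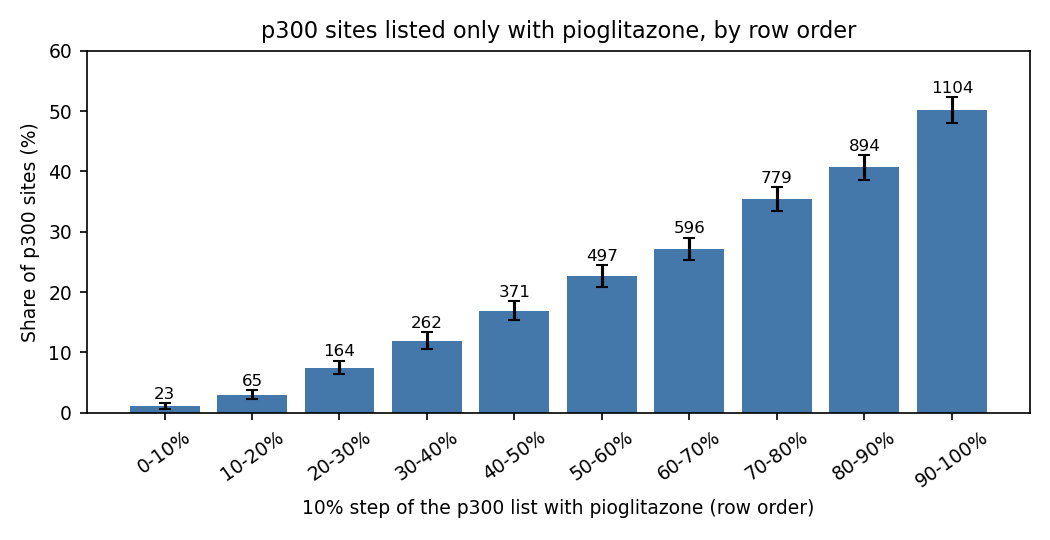
Share of p300 sites with pioglitazone that are listed in no other list (y axis, percent) in each 10% step of row order of that list (x axis). Bars are shares, whiskers exact 95% intervals, and the numbers above are counts of sites; the share goes from 1.05% in the first step to 50.2% in the last.

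The first 15 pioglitazone-only sites, all within the first 1471 rows, lay beside other peaks rather than in empty stretches. A p300 peak without pioglitazone had its centre within 1 kb of 12 of the 15. The site on chromosome 11 at 78894531 to 78894757, at position 206, had its nearest p300 peak without pioglitazone 289 bp away, centre to centre, at position 635 of that list. The site on chromosome 6 at 113640102 to 113640328, at position 238, had one 429 bp away, at position 868. The site on chromosome 17 at 88248851 to 88249077, at position 696, had one 407 bp away, at position 600. In these 3 places the neighbouring p300 peak was itself listed in no other list, so each treatment listed a p300 position of its own, under 500 bp apart.

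A further 4 of the 15 had as nearest neighbour a p300 peak that was not listed with pioglitazone but whose position held a c-Jun peak in 1 or both treatments. The pair first in row order lay on chromosome 8 at 58757505 to 58757731, 479 bp from that peak, and on chromosome 2 at 173179107 to 173179333, 354 bp from it. The others lay on chromosome 18 at 75526625 to 75526851, 481 bp away, and on chromosome 9 at 95089204 to 95089430, 319 bp away. Their positions in the p300 list were 823, 895, 1065 and 1428. At those on chromosomes 8, 2 and 9 the neighbouring position held c-Jun in both treatments, and at the one on chromosome 18 with pioglitazone only. At these 4 loci the p300 peak without pioglitazone overlapped a c-Jun peak, and the p300 peak with pioglitazone stood under 500 bp from that p300 peak and overlapped none.

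At 6 of the 15 the nearest p300 peak without pioglitazone was at a position listed for p300 in both treatments. On chromosome 1 at 194562220 to 194562446, position 452, that peak was 537 bp away, and it stood at position 282 of the list without pioglitazone. On chromosome X at 166413613 to 166413839, position 502, it was 738 bp away and at position 175. The other 4 of these 6 stood beside positions held by all 4 lists. Their distances were 811 bp on chromosome 8 (109730681 to 109730907), 519 bp on chromosome 12 (74880875 to 74881101), 507 bp on chromosome 5 (125552368 to 125552594) and 3042 bp on chromosome 13 (105307101 to 105307327). The remaining 2 of the 15 were farther from p300 without pioglitazone, 3827 bp on chromosome 5 (143579420 to 143579646, position 739) and 5018 bp on chromosome 18 (60773180 to 60773406, position 1394). Both neighbours were listed only without pioglitazone.

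Over all 4755 sites the nearest p300 peak without pioglitazone was at a median distance of 8861 bp. It lay within 500 bp for 536 sites, 11.3% (10.4 to 12.2), and within 1 kb for 977, 20.5% (19.4 to 21.7). Another 1752 sites, 36.8% (35.5 to 38.2), had it over 1 kb away but inside a 25 kb window centred on the site. For 341 sites, 7.17% (6.45 to 7.94), it was beyond 100 kb. Within the first kb, 181 sites lay up to 300 bp from a p300 peak without pioglitazone, 202 between 300 and 400 bp, 153 between 400 and 500 bp and 147 between 500 and 600 bp. Between 600 and 800 bp there were 181 and between 800 and 1000 bp 113. Peaks that do not overlap cannot have centres closer than the mean of their widths, so the first of these ranges is only partly open to such sites. Of the 6001 p300 sites of both treatments without c-Jun, 6.25% (5.65 to 6.89) had a further p300 site without pioglitazone within 1 kb. For 51.5% (50.2 to 52.8) the nearest was over 1 kb away but inside the centred 25 kb window. The whole window held one for 57.8% (56.5 to 59.0) of them and for 57.4% (56.0 to 58.8) of pioglitazone-only sites.

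Near p300 peaks were less frequent further down the list. A p300 peak without pioglitazone was within 1 kb for 16 of the 23 sites in the first 10% step, 69.6% (47.1 to 86.8), and for 52.3% (39.5 to 64.9) in the second. In the fifth step the share was 28.0% (23.5 to 32.9), and in the last 11.7% (9.85 to 13.7). In the first step all 23 sites had a peak of another list inside their centred 25 kb window. In the last step 234 sites, 21.2% (18.8 to 23.7), were over 50 kb from all of them. Among p300 sites listed only without pioglitazone, the share with p300 with pioglitazone within 1 kb also fell. By steps of their own list it was 37.5% (24.9 to 51.5) in the first and 3.44% (2.74 to 4.25) in the last.

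The p300 sites listed only without pioglitazone were less often near a p300 peak of the other treatment, but that difference depended on the lengths of the lists. Of these 11485 sites, 8.42% (7.92 to 8.94) had a p300 peak with pioglitazone within 1 kb. Pioglitazone-only sites exceeded them by 12.6 percentage points (11.3 to 13.8) within 10% steps of each list, a comparison that sets sites of like row position against each other and pools the steps. The p300 list searched for pioglitazone-only sites was the longer one. When both lists without pioglitazone were shortened from the end to the lengths of those with it, 6241 sites were pioglitazone-only and 12.1% (11.3 to 12.9) had p300 without pioglitazone within 1 kb, while 11.9% (11.1 to 12.8) of 5466 sites listed only without it had p300 with it. The difference within steps was then 0.857 points (-0.311 to 2.03). At a wider radius it changed sign between the full and the equal lists. Inside centred 25 kb windows it was 16.8 points (15.2 to 18.4) with full lists and -11.0 points (-12.7 to -9.19) at equal lengths, where 41.9% (40.7 to 43.2) of pioglitazone-only sites and 54.3% (52.9 to 55.6) of the others had such a neighbour.

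**Figure D2:**
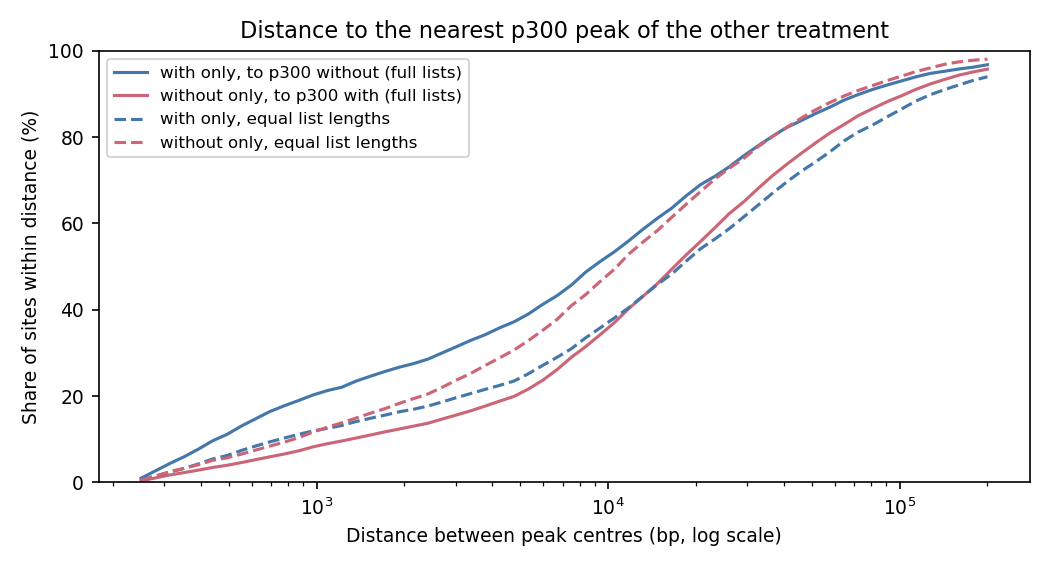
Cumulative share of sites (y axis, percent) whose nearest p300 peak of the other treatment lies within a given distance (x axis, bp between centres, log scale), for sites listed only with (blue) and only without (red) pioglitazone; solid lines use the full lists and dashed lines equal list lengths. With full lists the blue line is above the red; at equal lengths the lines run together at 1 kb (12.1% and 11.9%) and the blue line is the lower at wider distances.

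The neighbour itself differed with distance. Among the 536 pioglitazone-only sites with a p300 peak without pioglitazone within 500 bp, that peak was listed only without pioglitazone at 337, 62.9% (58.6 to 67.0). At 161, 30.0% (26.2 to 34.1), it had c-Jun in at least 1 treatment but no p300 with pioglitazone, and at 38, 7.09% (5.07 to 9.60), p300 was listed in both treatments. Over all 31466 p300 peaks without pioglitazone these kinds made up 36.5%, 12.0% and 51.5%, a comparison not matched for row order. Peaks within the p300 list with pioglitazone were never less than 324 bp apart, which by itself limits neighbours listed for p300 in both treatments at the shortest range. Between 500 and 1000 bp, 47.8% (43.1 to 52.6) of 441 neighbours were listed for p300 in both treatments, and farther out, inside the centred 25 kb window, 51.6% (49.2 to 54.0) of 1752 were.

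**Figure D3:**
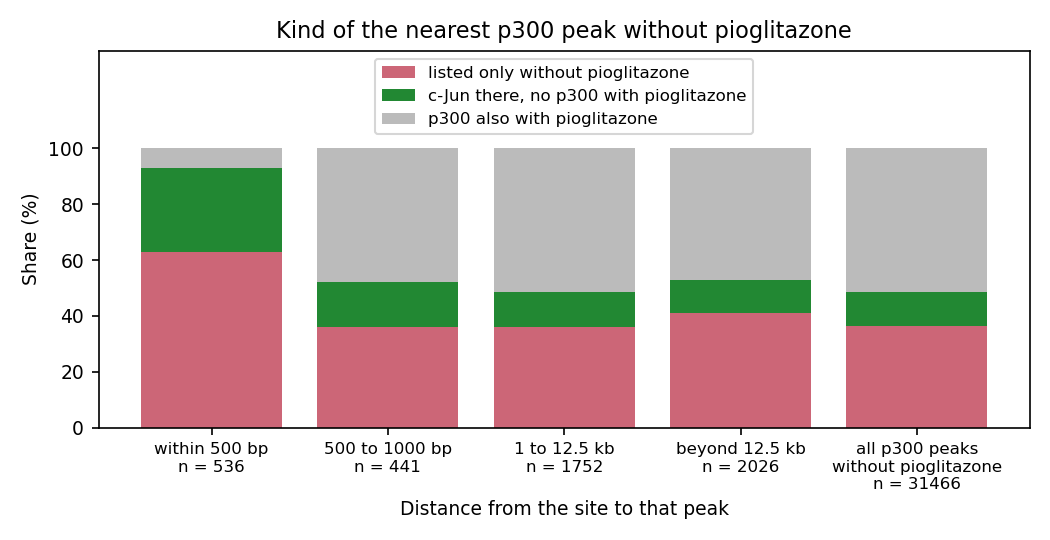
Kind of the nearest p300 peak without pioglitazone (stacked shares, y axis, percent) by its distance from the pioglitazone-only site (x axis), with all p300 peaks without pioglitazone in the last bar. Peaks listed only without pioglitazone are 62.9% of neighbours within 500 bp and 36.5% of all peaks. These shares are not matched for row order. The smallest spacing in the p300 list with pioglitazone, 324 bp, limits neighbours listed in both treatments at the shortest range.

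Some neighbours formed reciprocal pairs. At 490 pioglitazone-only sites, 10.3% (9.45 to 11.2), the nearest p300 peak without pioglitazone was within 1 kb, was listed only without it, and had the pioglitazone-only site as its own nearest p300 peak with pioglitazone. The median distance in these pairs was 393 bp, with quartiles at 293 and 546 bp. The partner was at the lower coordinate in 229 pairs and at the higher in 261. Both partners stood below the middle of their lists, at medians of 68.0% with and 61.5% without pioglitazone. In addition, 232 pioglitazone-only sites lay within 1 kb of a p300 peak that was not listed with pioglitazone while c-Jun was listed there. That c-Jun peak was present without pioglitazone only at 94, with it only at 52 and in both treatments at 86.

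c-Jun, which the rule keeps from overlapping these sites, was nonetheless close to many of them. A c-Jun peak of either treatment had its centre within 1 kb of 730 pioglitazone-only sites, 15.4% (14.3 to 16.4), and inside the centred 25 kb window of 46.4% (45.0 to 47.9). Within 1 kb, 282 of the 730 had c-Jun in both treatments, 275 without pioglitazone only and 173 with it only. The c-Jun list without pioglitazone was near 11.7% (10.8 to 12.7) and the shorter list with it near 9.57% (8.75 to 10.4). Shortened to the same 13325 rows, the list without pioglitazone was near 9.55% (8.73 to 10.4), so at equal length the treatments' c-Jun lists were within 1 kb of nearly equal shares.

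Both comparison classes also lack overlapping c-Jun by their rules, so their surroundings can be set beside these. Of the 6001 p300 sites of both treatments without c-Jun, 8.67% (7.97 to 9.41) had c-Jun within 1 kb, and of the 11485 sites listed only without pioglitazone 7.01% (6.55 to 7.49). Within 10% steps of row order pioglitazone-only sites exceeded the former by 9.47 points (8.15 to 10.8) and the latter by 8.68 points (7.56 to 9.80). The first comparison used steps of 1 list, p300 with pioglitazone. In the second each class was placed by its own p300 list, and these lists differ in length. Inside centred 25 kb windows the raw difference from sites of both treatments was -0.374 points, and within steps it was 6.07 (4.09 to 8.05). With peaks joined into sites across gaps of up to 500 bp, the difference within 1 kb was 1.56 points (0.899 to 2.22). Near c-Jun went with near p300. Of the 977 pioglitazone-only sites with p300 without pioglitazone within 1 kb, 44.5% (41.4 to 47.7) had c-Jun within 1 kb, and of the other 3778 sites 7.81% (6.97 to 8.71) did. Among sites of both treatments without c-Jun, a further p300 site without pioglitazone within 1 kb went with a c-Jun share of 48.3% (43.1 to 53.4, 375 sites), and its absence with 6.03% (5.42 to 6.68, 5626 sites). Between classes alike in this respect the difference within steps was 0.310 points (-5.82 to 6.44) where a further p300 site was near and 3.21 points (2.06 to 4.35) where none was.

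**Figure D4:**
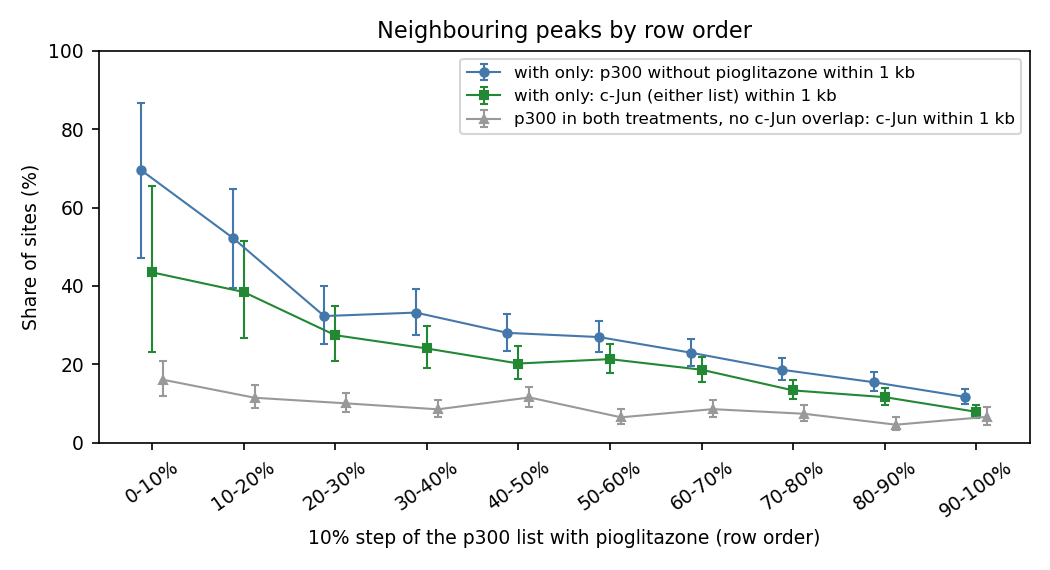
Share of sites (y axis, percent, with exact 95% intervals) with a neighbouring peak within 1 kb, by 10% step of the p300 list with pioglitazone (x axis). Pioglitazone-only sites are in blue for p300 without pioglitazone, from 69.6% to 11.7%, and in green for c-Jun of either list; p300 sites of both treatments without overlapping c-Jun are in grey for c-Jun.

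When sites of all 4 lists were chained into domains, each site's centre lying inside the 25 kb window of the next, 1622 pioglitazone-only sites, 34.1% (32.8 to 35.5), stood in domains made of such sites alone. In domains that also held a p300 site of both treatments there were 1711, 36.0% (34.6 to 37.4). Domains with a p300 site of the treatment without pioglitazone alone held 1998, 42.0% (40.6 to 43.4), and domains with c-Jun 2390, 50.3% (48.8 to 51.7). These last groups can overlap. No such shares of the comparison classes are given here, so these values are not read as high or low.

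Most pioglitazone-only sites lay apart from each other. Another one lay inside the centred 25 kb window of 498 sites, 10.5% (9.62 to 11.4), and the median distance between neighbours was 92705 bp. Of p300 sites listed only without pioglitazone, 22.2% (21.4 to 23.0) had another of their class in that window. Of p300 sites of both treatments without c-Jun, 18.1% (17.2 to 19.1) did. These classes are larger, with 11485 and 6001 sites. Chained by the same windows, 4257 pioglitazone-only sites stood alone, 229 groups held 2, 12 held 3 and 1 held 4. Of the groups of 3, the 4 with the highest placed site in row order are named here beside the group of 4. The group of 4 lay on chromosome 5 from 114221757 to 114248695, where 2 p300 peaks without pioglitazone, 2 c-Jun peaks without it and 1 with it were also listed. On chromosome 12, from 81309272 to 81331349, 3 pioglitazone-only sites, the first in row order at position 2024, stood with 2 p300 peaks without pioglitazone, 1 c-Jun peak without it and 2 with it. On chromosome 17, from 66121879 to 66133368, 3 such sites stood with 0 p300 peaks without pioglitazone and 1 c-Jun peak without it. The 3 sites at 37962699 to 37977374 of chromosome 8 stood with 1 p300 peak and 1 c-Jun peak without pioglitazone. The last, at 116384120 to 116400217 of chromosome 11, contained 2 p300 peaks of the list without pioglitazone and 0 c-Jun peaks.

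A minority was isolated. No peak of the other 3 lists lay within 50 kb of 538 sites, 11.3% (10.4 to 12.2), or within 100 kb of 272, 5.72% (5.08 to 6.42). c-Jun of either list was beyond 50 kb for 20.9% of pioglitazone-only sites. For sites listed only without pioglitazone this was 21.8%, and for sites of both treatments without c-Jun 16.6%. p300 of the other treatment was within 50 kb for 84.96% of pioglitazone-only sites and 77.98% of sites listed only without pioglitazone. At equal list lengths these shares were 73.7% and 85.8%. Row order was not matched. Whether isolation is particular to pioglitazone-only sites was not tested. Isolation went with low rows: over 50 kb from the other lists were 0 of 23 sites in the first 10% step and 0 of 65 in the second, with upper 95% limits of 14.8% and 5.52%, and 3 of 164 in the third. The isolated site first in row order, picked after these values were seen, was on chromosome 10 at 56098455 to 56098681, at position 4685, with the nearest other list 60463 bp away. The next in order lay on chromosome 2 at 144096361 to 144096587, position 5070, and on chromosome 8 at 13105363 to 13105589, position 6377. They were followed by sites on chromosome 16 at 13667960 to 13668186, position 6621, and on chromosome 6 at 142457345 to 142457571, position 7933. The one on chromosome 16 had another pioglitazone-only site 3995 bp away. The site farthest from any other list was on chromosome 14 at 93306922 to 93307148, 4449269 bp from the nearest peak, and stood at position 21852 of 21994. The 4 next farthest lay on chromosome 6 at 104949595 to 104949821, X at 63906619 to 63906845, 1 at 48090143 to 48090369 and 16 at 40401617 to 40401843. They were between 1121815 and 1212297 bp away, at positions 18789 to 21876.

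By chromosome, with Y left aside because it held 1 p300 site with pioglitazone, the pioglitazone-only share went from 14.7% (12.7 to 17.0) of 1073 p300 sites on chromosome 13 to 25.4% (22.3 to 28.6) of 769 on chromosome 19. Chromosomes 10, 6, 5 and 7 followed chromosome 19, at 24.7%, 24.5%, 24.4% and 24.0%, and their intervals overlapped it. Row order differed between chromosomes, with the median p300 site at 36.7% of the list on chromosome 19 and at 73.0% on X. The median site was at 37.3% on chromosome 10, 40.9% on 6, 53.6% on 13 and 64.5% on 4. Within 10% steps chromosome 10 stood 8.24 points (6.19 to 10.3) above the other chromosomes, chromosome 19 8.04 points (5.19 to 10.9) and chromosome 6 6.47 points (4.34 to 8.61). The difference was -12.6 points (-16.1 to -9.16) for X, -8.00 (-10.0 to -5.98) for chromosome 13 and -7.97 (-10.5 to -5.49) for chromosome 4. Of the chromosomes named here, those above the rest had their median site higher in the list than those below. How far the matching by steps sets these differences was not tested. With all lists shortened to their first 50% of rows the difference for X was -1.96 points (-7.90 to 3.97) and that for chromosome 19 was 2.36 (-0.733 to 5.45). It was then 2.95 points (0.704 to 5.20) for chromosome 10 and -5.85 (-8.18 to -3.53) for chromosome 13, and it was not recomputed for chromosomes 4 and 6. X had the highest share of p300 sites listed only without pioglitazone, 43.8% (40.2 to 47.4) of 754, with a raw pioglitazone-only share of 18.7% (15.1 to 22.7). At equal list lengths the pioglitazone-only share was 33.9% (29.4 to 38.6) on X, against 28.4% over all chromosomes. It was then 28.5% (25.3 to 31.8) on chromosome 19, 28.2% (25.9 to 30.6) on 10 and 21.9% (19.5 to 24.5) on 13. Differences within steps were -7.55 points (-11.6 to -3.51) for X and 5.89 (3.09 to 8.70) for chromosome 19. They were 6.61 (4.57 to 8.65) for chromosome 10 and -7.92 (-10.1 to -5.70) for 13. Steps and cuts of the list can end inside a stretch of rows ordered by chromosome, and the effect on these values was not tested. Peaks are not replicates, and the copy number of chromosomes in this line was not tested.

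**Figure D5:**
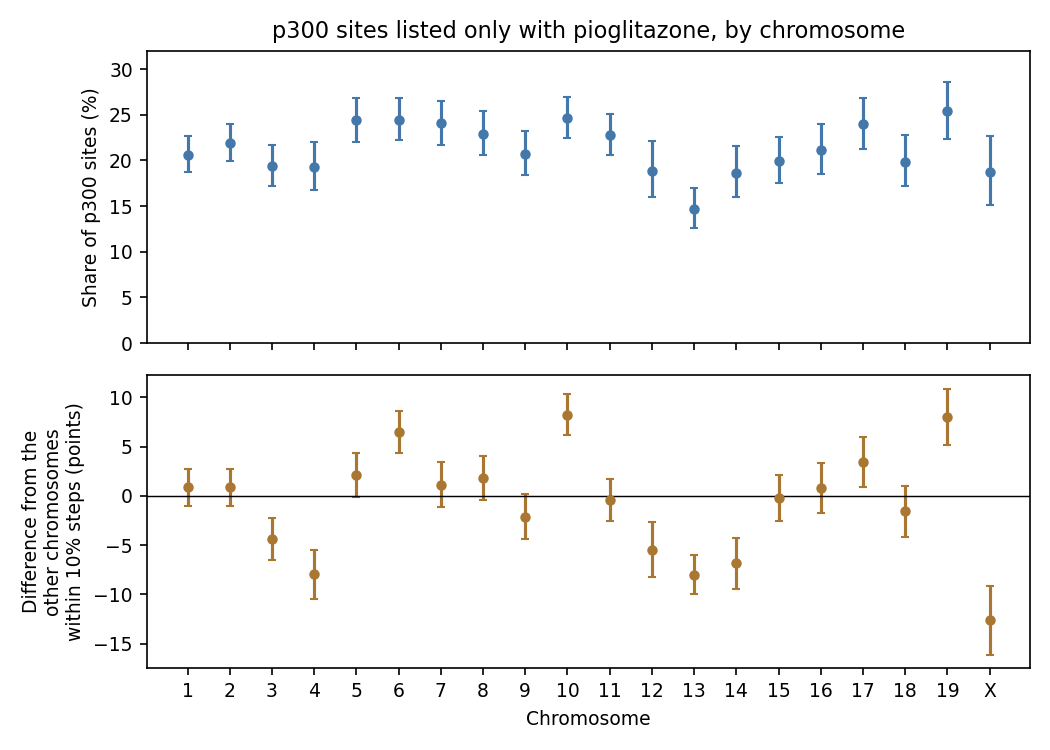
Share of p300 sites with pioglitazone that are pioglitazone-only on each chromosome (upper panel, percent, exact 95% intervals) and the difference of that share from all other chromosomes within 10% steps of row order (lower panel, percentage points, 95% intervals). Chromosome 13 has the lowest share, 14.7%, and chromosome X the lowest difference, -12.6 points. Chromosomes differ in row order, with the median p300 site at 36.7% of the list on chromosome 19 and at 73.0% on X.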

How the data were processed

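Build mm9 and the tools HOMER, SAMtools 1.9 and Bowtie2 2.3.4.3 are named in the submitters' processing notes. What each tool did, the settings of the peak calling and the use of the input were not given in the sources used here. The deposited score is 1 for every peak and carries no strength, and each list, as deposited, holds intervals of 1 width from a single library. From these intervals, sites were formed in Python (version 3.11.15, numpy 2.4.6, pandas 2.3.3, scipy 1.17.1) by joining peaks that overlap by at least 1 bp. bedtools (version 2.31.1) gave the same 44718 sites and the same 4755 pioglitazone-only sites. Distances run between centres. Differences within 10% steps of row order are Mantel-Haenszel risk differences, with 95% intervals; shares have exact ones. The functions were tested on simulated data. For the joining of peaks, simulated sites lay farther than 1 kb apart, so close neighbours at the overlap limit were not tested there. Named are the 15 sites first in row order, the 5 farthest from other lists, those nearest the overlap limit, the 5 groups with most sites (ties taken by row order) and the extreme chromosomes. The sites and comparisons were chosen with earlier results of these data known. Alternatives covered the overlap rule, list lengths, chromosomes and distances. Shares at promoters, gene lists and motifs had been planned and were not run, because no mm9 annotation or sequence was used here. The submitters' input library was not analysed here.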

Additional observations from a re-analysis of the deposited data

How the results depend on the processing

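No paired analysis was possible because each group is 1 library. Shares at promoters and of motifs were not run. In each setting the values stand in 1 order, leaving out counts within 1.5 times of the reported one, shares and differences between classes whose new value lay within the reported interval, and position differences and spreads that moved by at most 10%: the number of pioglitazone-only sites; their share of p300 sites with pioglitazone; their median position minus that of p300 sites of both treatments without c-Jun, in percent of the list; the share near p300 without pioglitazone; the same for sites listed only without pioglitazone and p300 with it; the difference of these within steps; the share near c-Jun; its difference from sites of both treatments without c-Jun; the share beside another such site; and the spread between chromosomes. With the first 50% of the p300 list with pioglitazone they were 885, 8.05%, 7.54 points, 33.2%, 2.75%, 30.7 points, 24.6%, 14.9 points, 8.36% and 8.77 points. With all lists shortened to 50% they were 1609, 14.6%, 12.1 points, 16.8%, 6.47%, 11.0 points, 13.2%, then 8.27% beside another and a spread of 9.28 points. At equal list lengths they were 28.4% of p300 sites, 29.2 points, 12.1%, 11.9%, 0.857 points, 12.55% near c-Jun, 13.3% beside another and a spread of 12.0 points. Peaks joined at 50% of both gave 28.2% of p300 sites, then 36.6%, 16.1% and 20.8 points for p300, 23.6% and 13.7 points for c-Jun, 14.4% and 9.51 points. Centres within 100 bp gave 30.1%, then 40.1%, 18.1% and 22.3 points for p300, 25.1% and 13.1 points for c-Jun, 15.1% and 8.87 points. Gaps of up to 500 bp gave 16.9%, then 3.30%, 1.77% and 1.72 points for p300, 2.64% and 1.56 points for c-Jun, and 7.35%. By construction this rule removes most near neighbours. With near set at 500 bp the p300 values were 11.3%, 4.04% and 7.45 points and the c-Jun values 8.20% and 5.69 points; at 5000 bp they were 38.1%, 20.5%, 18.7 points, 28.5% and 10.9 points. The share beside another site was 4.86% within 5 kb of the centre and 20.5% within 25 kb of it. The site counts left out were 6207 for 50% of both, 6612 for centres, 3632 for gaps and 6241 at equal lengths, against 4755. With autosomes alone 4675 sites remained, and every share above stayed within its interval from all chromosomes. Alternatives for the differences between classes, for the share of sites listed only without pioglitazone and for single chromosomes were added after the data had been seen. All 45 differences recomputed under 1 changed setting kept their sign, and the intervals of 3 included 0; equal lengths together with a radius of 5 kb or more turned the difference near p300, as reported above. For the other settings the cause was not tested. Depth is unknown and limits every count of listed sites.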

Other observations

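Along the genome, 1666 windows of 1 Mb held at least 1 pioglitazone-only p300 site, of 2132 with any p300 site with pioglitazone, and 21 windows held 10 or more. These windows were counted after the lists had been seen. The fullest was on chromosome 8 from 74000001 to 75000000, where 15 of 24 p300 sites with pioglitazone were pioglitazone-only, 62.5% (40.6 to 81.2), and 8 of 20 p300 sites without it were listed only without it. On chromosome 7, from 52000001 to 53000000, 14 of 26 p300 sites were pioglitazone-only, 53.8% (33.4 to 73.4), and 12 of 30 were listed only without pioglitazone. On chromosome 17, from 26000001 to 27000000, the counts were 14 of 29 and 13 of 34. On chromosome 12, from 74000001 to 75000000, they were 13 of 33 (39.4%) and 17 of 38 (44.7%). On chromosome 19, from 5000001 to 6000000, they were 13 of 31 (41.9%) and 18 of 38 (47.4%). In both windows the share listed only without pioglitazone was the larger, as it was over the whole lists. There 21.6% of p300 sites with pioglitazone were pioglitazone-only, and 36.5% of those without it were listed only without it. These 5 are the windows with 13 or more pioglitazone-only sites. The windows were picked for their counts, so these shares describe them and were not tested.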
